A study of Mus musculus with 6 samples.

Results

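The transcripts described here encode the chains of mouse MHC class I: the light chain gene B2m and the 8 heavy-chain genes H2-K1, H2-D1, H2-Q4, H2-Q6, H2-Q7, H2-T22, H2-T23 and H2-M3. They were chosen by name, as 9 of the 22964 genes in the count table, with no threshold on their values, although earlier results of these data were known. All 9 were measured and all 9 were among the 15394 genes that passed the filter on low counts. The samples were endothelial cells of lymphatic vessels in the meninges, the membranes that wrap the brain. They had been sorted as negative for CD45, a leukocyte protein, and positive for CD31 and podoplanin. The study compared 3 samples from young mice aged 2 to 3 months with 3 samples from old mice aged 20 to 24 months. All mice were male, wild type, of the strain C57BL/6J and untreated. Nothing in the labels says that the samples of a group came from separate animals, so the p-values rest on the spread between samples alone, and that spread may be technical. The study's title places the comparison in work on how meningeal lymphatic vessels function with age and in Alzheimer's disease.

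An MHC class I molecule is a heavy chain held together with beta-2-microglobulin, the product of B2m, and most heavy chains need this light chain and a bound peptide to reach the cell surface. The peptides come mostly from proteins cut up by the proteasome, are pumped into the endoplasmic reticulum by the TAP transporter and are loaded there with the help of tapasin. The classical chains encoded by H2-K1 and H2-D1 show peptides to CD8 T cells on almost all nucleated cells. The nonclassical chains of the H2-Q, H2-T and H2-M regions vary less between strains and have narrower tasks. Interferons and the transactivator NLRC5 are known to raise transcription of the classical genes and of B2m.

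The libraries held 14285794 to 21043945 estimated counts each, and some measures of the libraries differed with age. Genes detected were 18086 to 18949 in young and 17074 to 17995 in old samples, and the TMM scaling factors 1.03 to 1.06 and 0.908 to 0.985, both without overlap. Mitochondrially encoded genes held 17.5% to 18.3% of the counts in young samples and 21.9%, 24.1% and 17.7% in old samples 1 to 3. The part of these measures in the results was not tested. One estimated count was worth 0.045 to 0.0748 CPM, where CPM are counts scaled to a common library size. Levels are given in CPM, which can be compared between samples for a gene, and as CPM per kilobase of exon where genes are compared with each other. The sort was checked on its own markers. Prox1, the transcription factor that defines lymphatic endothelium, stood at 909 ± 34.4 CPM in young samples and 1112 ± 259 CPM in old samples (SD, n = 3 each). Pdpn stood at 72.2 ± 9.22 and 93.8 ± 43.4 CPM and Pecam1, which encodes CD31, at 374 ± 46.5 and 611 ± 107 CPM. Ptprc, which encodes CD45, was at 0.993, 57.4 and 72.7 CPM in the young samples and at 30.98, 30.7 and 62.9 CPM in the old samples. The RNA is from bulk samples, so fewer cells of a type and less RNA per cell cannot be told apart.

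The promoters of the class I genes are shown first because the same short elements recur in them, in several genes at nearly the same spacing. The sequences are the bases upstream of the RefSeq transcription start in the build GRCm38.p6, 5′ to 3′ along the gene's own strand, ended before the gene's own first exon as GENCODE annotates it. Capitals mark the 4 motifs searched on both strands: the kB element GGGATTCCC, bound by NF-kB; the core of the interferon-stimulated response element, TTTCNNTT; TGACG, the core of the X2 box bound by CREB and ATF factors; and ATTGG, the core of the Y box bound by NF-Y. On the opposite strand the Y box core reads CCAAT, and in B2m the interferon element is on the opposite strand. The promoter of B2m (chr2:122147487-122147685, plus strand) and those of H2-K1 (chr17:34000348-34000547, minus strand), H2-Q6 (chr17:35424650-35424849, plus strand), H2-Q7 (chr17:35438955-35439154, plus strand) and H2-T22 (chr17:36042748-36042942, minus strand) read as follows.
B2m: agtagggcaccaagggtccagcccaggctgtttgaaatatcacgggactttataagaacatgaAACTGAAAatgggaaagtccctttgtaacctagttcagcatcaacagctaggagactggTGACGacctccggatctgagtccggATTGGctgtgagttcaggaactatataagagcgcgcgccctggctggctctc
H2-K1: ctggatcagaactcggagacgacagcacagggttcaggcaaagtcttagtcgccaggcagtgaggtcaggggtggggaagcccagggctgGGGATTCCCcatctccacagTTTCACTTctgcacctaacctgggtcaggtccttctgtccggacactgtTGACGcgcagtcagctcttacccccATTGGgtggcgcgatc
H2-Q6: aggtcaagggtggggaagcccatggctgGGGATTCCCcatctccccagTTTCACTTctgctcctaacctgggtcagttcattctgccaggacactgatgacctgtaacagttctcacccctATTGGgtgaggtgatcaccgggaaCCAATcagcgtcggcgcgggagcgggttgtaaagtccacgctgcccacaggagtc
H2-Q7: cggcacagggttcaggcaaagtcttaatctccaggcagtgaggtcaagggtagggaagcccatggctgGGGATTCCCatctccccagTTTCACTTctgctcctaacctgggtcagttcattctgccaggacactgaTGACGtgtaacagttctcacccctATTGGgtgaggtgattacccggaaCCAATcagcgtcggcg
H2-T22: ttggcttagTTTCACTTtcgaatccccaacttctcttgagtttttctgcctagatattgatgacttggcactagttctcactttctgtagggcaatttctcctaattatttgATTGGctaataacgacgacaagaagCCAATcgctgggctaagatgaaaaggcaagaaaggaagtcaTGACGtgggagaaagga
The kB letters were found within 200 bases upstream of the start in 4 of the 9 class I genes, namely H2-K1, H2-D1, H2-Q6 and H2-Q7, and in 60 of 27025 RefSeq promoters of the same length (0.222%). The interferon element's core was found in all 9, against 4636 of all promoters (17.2%). The X2 letters were found in 7 of 9, all but H2-Q6 and H2-T23, against 4267 of all promoters (15.8%), and the Y letters in 9 of 9 against 8112 (30%). In H2-T22 the X2 letters began at -22, downstream of both Y matches at -88 and -63. In H2-Q4 they began at -73, between Y matches at -79 and -55. The X2 letters of these genes thus do not precede all Y letters, as they do in H2-K1, H2-D1 and H2-Q7. All 4 motifs together were found in 3 of the 9 class I genes, H2-K1, H2-D1 and H2-Q7, and in 3 of the 27025 promoters (0.0111%). Which genes made up the 3 of 27025 was not recorded. The count over all promoters used the first listed window of each gene, and the class I genes the window nearest the annotated start. Counted from the transcription start, the kB, interferon, X2 and plus-strand Y letters began at -110, -90, -41 and -16 in H2-K1, at -170, -150, -101 and -76 in H2-D1, and at -132, -113, -64 and -40 in H2-Q7. The motif letters were chosen with these promoters in view, so the shares describe the sequences and are no test. A match is no evidence of binding, and a missing match says only that these letters are not in this window.

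The light chain gene B2m (ENSMUSG00000060802, chromosome 2, 122147686 to 122153083, plus strand, 860 bases of exon in GRCm38) was at 965, 897 and 984 CPM in the young samples and at 1921, 2011 and 1663 CPM in the old samples. Every old sample lay above every young sample, and the 3 young samples lay close together. The group means were 948 ± 45.5 and 1865 ± 181 CPM (SD, n = 3 each), a ratio of 1.97. In edgeR's quasi-likelihood test the log2 fold change was 0.98 (SE 0.16), with an unadjusted p of 0.00017 that ranked 9 among the 15394 genes and a Benjamini-Hochberg adjusted p of 0.290. B2m lies within Patl2 on the opposite strand. The sources used here do not give whether the counting used strand, so reads from both genes cannot be told apart where their transcripts overlap.

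H2-K1 (ENSMUSG00000061232, chromosome 17, 33996017 to 34000347, minus strand), the classical K heavy chain, was at 281, 251 and 271 CPM in the young samples and at 1180, 605 and 861 CPM in the old samples. The groups did not overlap, and the old samples spread over a wider range than the young samples. Its means were 267.8 ± 15.001 and 882 ± 288 CPM (SD, n = 3 each), a ratio of 3.29, with an edgeR log2 fold change of 1.72 (SE 0.26), an unadjusted p of 0.000128 and an adjusted p of 0.246. H2-D1 (ENSMUSG00000073411, chromosome 17, 35262730 to 35267499, plus strand), the classical D heavy chain, was at 389.6, 328 and 401 CPM in the young samples and at 942, 645 and 837 CPM in the old samples. Again the groups did not overlap, and old sample 2 was the lowest of the old samples for both classical genes. For H2-D1 the means were 373 ± 39.6 and 808 ± 151 CPM (SD, n = 3 each), a ratio of 2.17, with an edgeR log2 fold change of 1.12 (SE 0.22), an unadjusted p of 0.000612 and an adjusted p of 0.448.

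H2-Q7 (ENSMUSG00000060550, chromosome 17, 35439155 to 35443773, plus strand), which encodes a Qa-2 antigen that can be anchored in the membrane by a lipid, was at 53.6, 93.8 and 76.4 CPM in the young samples. In the old samples it was at 336, 463 and 389.5 CPM, so that the lowest old sample was above 3 times the highest young sample. The means were 74.6 ± 20.2 and 396 ± 63.9 CPM (SD, n = 3 each), a ratio of 5.31. Its edgeR log2 fold change of 2.41 (SE 0.30) had an unadjusted p of 2.461e-05, which ranked 1 among all genes tested, and an adjusted p of 0.235. H2-Q6 (ENSMUSG00000073409, chromosome 17, 35424850 to 35430055, plus strand), whose end lies 9.1 kb before the start of H2-Q7, also belongs to the Qa-2 genes. It was at 2.30, 28.9 and 18.9 CPM in the young samples and at 193, 148 and 87.4 CPM in the old samples. Young sample 1 held 37 estimated counts of this gene, against 570 and 421 in the other young samples and 1790 to 2582 in the old samples. The means were 16.7 ± 13.5 and 143.0 ± 53.1 CPM (SD, n = 3 each), a ratio of 8.55, with an edgeR log2 fold change of 3.09 (SE 0.81), an unadjusted p of 0.0044 and an adjusted p of 0.693. Summed, H2-Q6 and H2-Q7 were at 55.9, 123 and 95.3 CPM in the young samples and at 529, 612 and 477 CPM in the old samples, a ratio of means of 5.91.

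H2-Q4 (ENSMUSG00000035929, chromosome 17, 35379617 to 35385290, plus strand), another gene of the H2-Q region, was at 44.8, 54.9 and 17.6 CPM in the young samples and at 146, 84.6 and 55.7 CPM in the old samples. The groups just failed to overlap, with 55.7 CPM in old sample 3 next to 54.9 CPM in young sample 2. The means were 39.1 ± 19.3 and 95.4 ± 46.1 CPM (SD, n = 3 each), and the edgeR log2 fold change of 1.29 (SE 0.56) had an unadjusted p of 0.0485 and an adjusted p of 0.888. Part of the gene, 676 bases, overlaps the antisense gene Gm11131.

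The remaining 3 heavy chains overlapped between the ages. H2-T23 (ENSMUSG00000067212, chromosome 17, 36029773 to 36032855, minus strand) encodes Qa-1, which presents leader peptides of the classical chains to a receptor of natural killer cells. It was at 74.0, 92.8 and 70.4 CPM in the young samples and at 150.3, 86.9 and 88.8 CPM in the old samples, so that only old sample 1 lay above all young samples. Its edgeR log2 fold change was 0.46 (SE 0.37, adjusted p = 0.941), and without old sample 1 it was 0.15. H2-T22 (ENSMUSG00000056116, chromosome 17, 36037128 to 36042747, minus strand) encodes a ligand of gamma-delta T cell receptors that binds no peptide. It was at 30.8, 41.5 and 20.6 CPM in the young samples and at 68.7, 6.90 and 211 CPM in the old samples, which held both the lowest and the highest value. Its edgeR log2 fold change of 1.62 (SE 0.95, adjusted p = 0.891) became 0.28 without old sample 3. H2-M3 (ENSMUSG00000016206, chromosome 17, 37270220 to 37274484, plus strand) presents peptides that begin with N-formylmethionine, as bacterial and mitochondrial proteins do. It was at 6.76, 19.6 and 8.87 CPM in the young samples and at 1.95, 43.7 and 29.7 CPM in the old samples, with an edgeR log2 fold change of 1.10 (SE 1.07, adjusted p = 0.948). That value was 0.43 without old sample 2 and 1.64 without old sample 1. All of H2-T23 and 1308 bases of H2-T22 overlap the antisense gene A930015D03Rik.

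**Figure D1:**
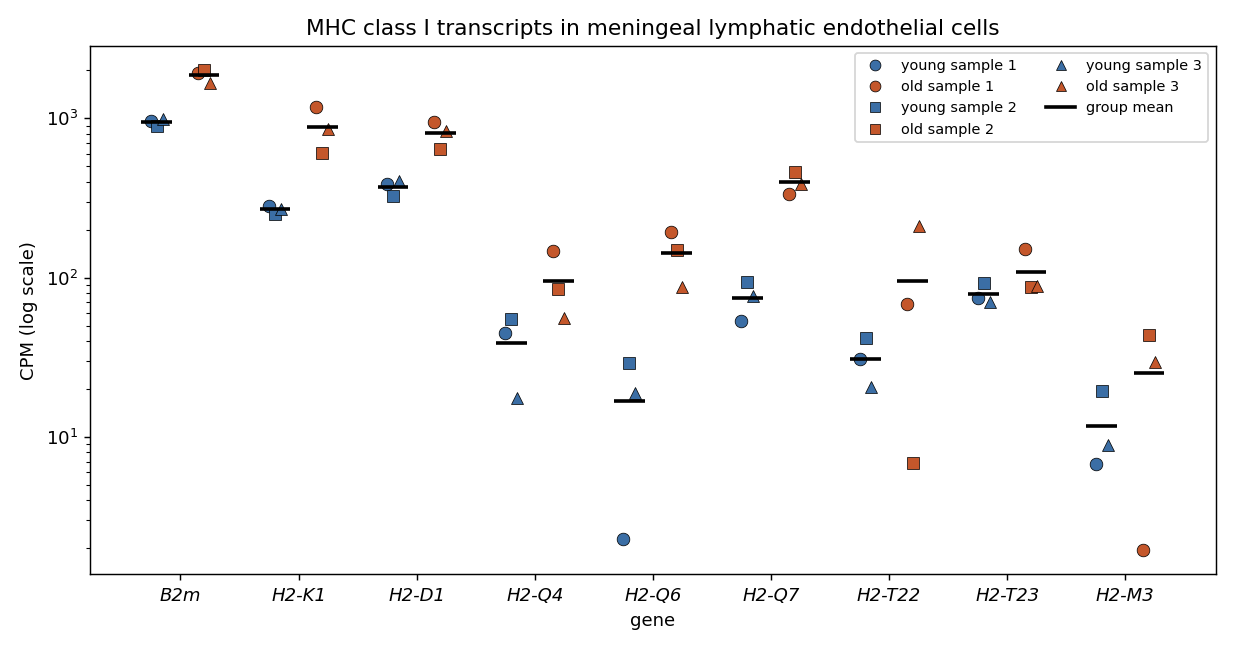
Levels of the 9 class I genes in each sample, in CPM on a log scale, with young samples in blue, old samples in orange, 1 marker shape per sample number and a bar at each group mean. The old samples of B2m, H2-K1, H2-D1, H2-Q4, H2-Q6 and H2-Q7 all sit above the young samples, whereas those of H2-T22, H2-T23 and H2-M3 overlap them.

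No gene of the 15394 passed edgeR's adjusted threshold of 0.05 (0% called, with 856 genes at an unadjusted p under 0.05), and so no class I gene did. At an unadjusted p under 0.05, 6 of the 9 class I genes were higher in old samples, against 441 of all genes tested (2.86%). Over all genes those at that threshold were 441 higher and 415 lower, whereas scaling by library size alone gave 285 higher and 546 lower, with 5 of the 9 class I genes among the 285. The same 6 genes were those whose old samples all lay above all young samples, against 856 of all genes (5.56%). By DESeq2, 5 of the 9 passed an adjusted p of 0.05 as higher in old samples, against 66 of 14747 genes with an adjusted p (0.448%). These were H2-Q7 (adjusted p = 2.052e-08), H2-K1 (0.000514), H2-Q6 (0.0113), B2m (0.0209) and H2-D1 (0.0288). By limma-voom none of the 9 passed, with adjusted p-values of 0.0623 for both H2-Q7 and B2m. All 9 log2 fold changes were above 0, with a median of 1.29 and quartiles of 1.10 and 1.72. Over all genes tested, 7848 (51%) were above 0, the median was 0.02 and the quartiles were -0.62 and 0.60.

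The heavy chains share sequence. Salmon, which the submitters' processing notes name, divides reads that fit several transcripts by likelihood, so each heavy chain's level is uncertain by that split. Of the distinct 31-base words in the annotated transcripts of H2-T22, 51% also occurred in transcripts of another gene, and H2-T10 held 47.2%. For H2-Q6 the share was 50.3%, with 24.6% in H2-Q4 and 18.4% in H2-Q7. It was 39.1% for H2-Q7, mostly with H2-Q10 (22.4%) and H2-Q5 (15.5%), and 38.4% for H2-Q4. The classical genes shared less, 22.8% for H2-K1 and 26.7% for H2-D1, and 358 words were common to both. H2-T23 shared 24.5% and H2-M3 4.62%, while none of the 830 words of B2m occurred in another gene.

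**Figure D2:**
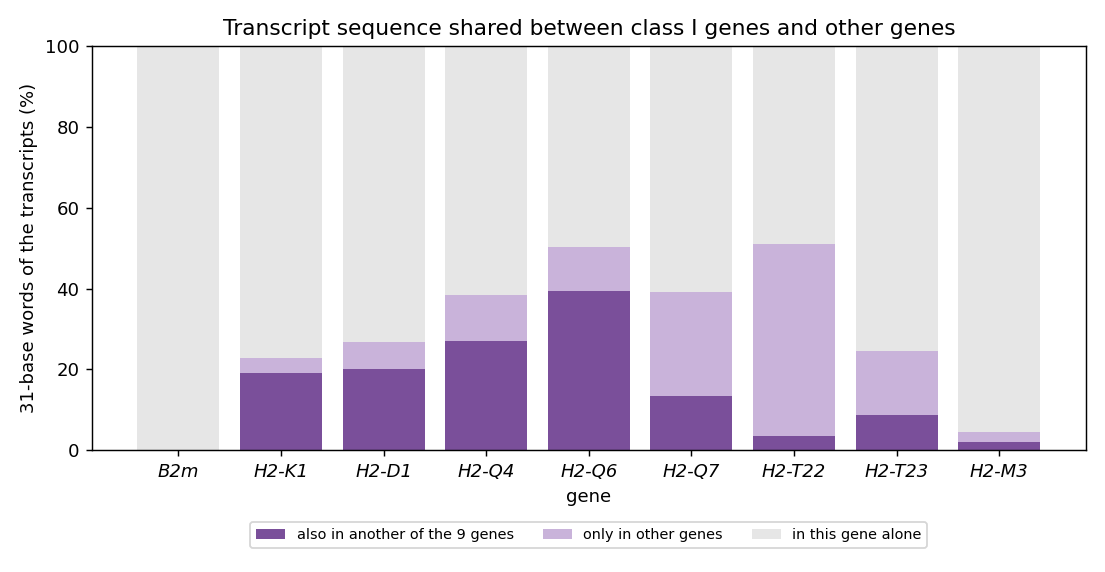
Percent of the 31-base words in each gene's annotated transcripts that also occur in another of the 9 genes, in other genes only, or in that gene alone. H2-T22 and H2-Q6 share 51% and 50.3% of their words with other genes, and B2m shares 0%.

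Summing the 8 heavy chains removes the split of reads among them, though not that with other copies. The 8 heavy chains together reached 883, 911 and 885 CPM in the young samples, against 3017, 2083 and 2561 CPM in the old samples. The young samples lay within a narrow band, and every old sample lay far above it. The means were 893 ± 15.5 and 2554 ± 467 CPM (SD, n = 3 each), a ratio of 2.86. As a sum over chosen genes this carries no test. With every class I heavy-chain gene of the MHC in the table added, the sum was 997 ± 63.1 CPM in young samples and 2722 ± 436 CPM in old samples (SD, n = 3 each), a ratio of 2.73. The 8 genes made up 89.7% ± 4.14 and 93.6% ± 2.43 of that larger sum. The genes added held 105 CPM in young and 168 CPM in old samples on average. They are not the same set as the other class I genes listed below, which held 100 and 162 CPM. A single row that merged 18 class I genes before the fit had an edgeR log2 fold change of 1.45 (SE 0.17), and no p-value is given for it.

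The classical pair, H2-K1 plus H2-D1, was at 670, 579 and 672 CPM in the young samples and at 2121, 1249 and 1699 CPM in the old samples, a ratio of means of 2.64. The 6 nonclassical chains were at 212, 332 and 213 CPM in the young samples and at 896, 834 and 862 CPM in the old samples, a ratio of 3.43. Both sums were apart between the ages. The nonclassical sum had the narrower spread in old samples (31.3 against 436 CPM, SD) and the wider one in young samples (68.8 against 53.4 CPM). In old samples every nonclassical gene but H2-M3 spread more than their sum, such as H2-T22 (SD 105 CPM) and H2-Q7 (63.9 CPM). Within the heavy-chain sum, the share of H2-D1 was lower in every old sample, at 41.8% ± 5.09 in young and 31.6% ± 0.948 in old samples (SD, n = 3 each). The share of H2-T23 was 8.84% ± 1.19 in young and 4.21% ± 0.758 in old samples, also without overlap. H2-Q7 made up 6.07%, 10.3% and 8.63% of the sum in young samples 1 to 3, against 11.1%, 22.2% and 15.2% in old samples 1 to 3. H2-Q6 made up 1.86% ± 1.48 and 5.65% ± 1.97, and its old samples too lay above its young samples. The shares of H2-K1 (30.0% and 33.9%), H2-Q4 (4.37% and 3.69%), H2-T22 (3.46% and 3.61%) and H2-M3 (1.31% and 1.11%) overlapped between the ages.

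**Figure D3:**
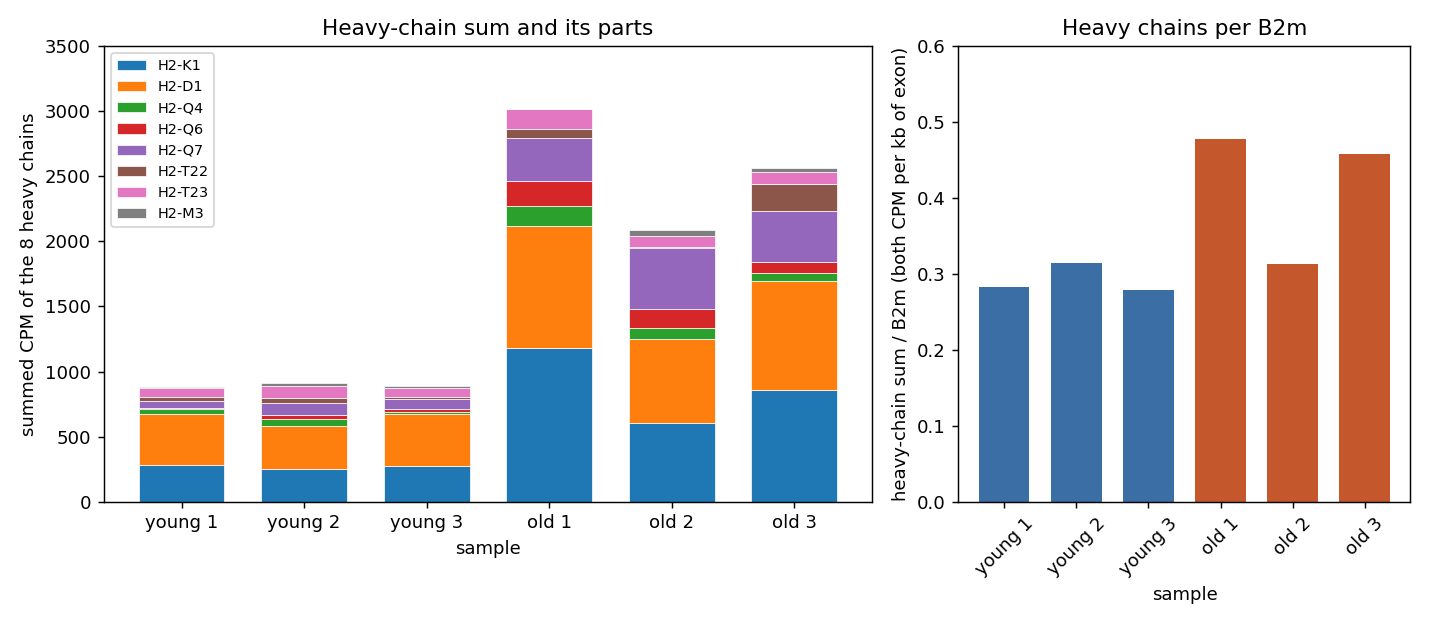
Left, summed CPM of the 8 heavy chains in each sample, stacked by gene; right, the heavy-chain sum divided by B2m in each sample, both as CPM per kilobase of exon. The sums are 883 to 911 CPM in young samples and 2083 to 3017 CPM in old samples, and the ratio of old sample 2 lies among those of the young samples.

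Per kilobase of exon, B2m was the highest of the 9 genes in both groups, at 1103 ± 53.0 CPM per kilobase in young samples and 2169 ± 210 in old samples (SD, n = 3 each). In young samples H2-D1 (145 ± 15.4), H2-K1 (91.2 ± 5.11) and H2-T23 (27.4 ± 4.18) followed, each apart from the next by sample. H2-Q7 (17.5 ± 4.73), H2-Q4 (15.1 ± 7.44), H2-T22 (9.07 ± 3.07), H2-M3 (8.16 ± 4.77) and H2-Q6 (8.02 ± 6.46) overlapped their neighbours in that order. In old samples H2-D1 (313 ± 58.4) and H2-K1 (300.1 ± 98.0) overlapped each other, and H2-Q7 (92.9 ± 14.97) and H2-Q6 (68.6 ± 25.5) came next and overlapped too, as did H2-Q6 with H2-T23. H2-T23 (37.6 ± 12.5), H2-Q4 (36.8 ± 17.8), H2-T22 (28.0 ± 30.6) and H2-M3 (17.5 ± 14.8) were the lowest and overlapped. Thus H2-T23 was above H2-Q7 in every young sample and below it in every old sample. The heavy-chain sum per B2m, both per kilobase, came to 0.282, 0.314 and 0.278 in young samples 1 to 3 and to 0.478, 0.312 and 0.458 in old samples 1 to 3. Old samples 1 and 3 were above the young samples and old sample 2 was among them, so the groups overlapped at a ratio of means of 1.43.

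The profiles of the class I genes over the 6 samples were compared by the root mean square difference between centred log2 CPM values, where smaller means more alike. B2m and H2-D1 were the closest pair at 0.227, followed by H2-K1 and H2-D1 at 0.312 and by B2m and H2-T23 at 0.407. H2-Q6 and H2-T22 were the farthest apart at 2.48. Among 7055 other genes with a mean of at least 20 CPM, the median difference from B2m was 0.772, and the 5 closest to B2m were Tox4 (0.0945), Cnnm3 (0.114), Ccl21a (0.14), Ctnnb1 (0.141) and Gm21541 (0.145). The 5 closest to the heavy-chain sum, with a median of 0.957 over all compared genes, were Rgs3 (0.107), Gm10591 (0.115), Ccl21b (0.115), Tpd52l2 (0.146) and Smarcd2 (0.205). Ccl21a, Ccl21b and Gm10591 are near-identical copies of the gene for the chemokine CCL21, which lymphatic endothelium makes, so they are not separate observations. Ccl21a was at 3035, 2359 and 2790 CPM in the young samples and at 6102, 4851 and 4878 CPM in the old samples.

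The genes that load peptides onto class I showed no common direction. Of 8 tested, 4 had log2 fold changes above 0 and 4 below, with a median of 0.01 that ranged from -0.34 to 0.26 when 1 sample was left out. Their summed level was 1396 CPM in young and 1332 CPM in old samples on average. Most of that sum came from Calr (398 and 340 CPM), Pdia3 (393 and 400 CPM) and Canx (304 and 258 CPM). It therefore says little about the genes at lower levels. Tap2, a subunit of the TAP transporter, was at 5.65, 8.07 and 14.9 CPM in the young samples and at 69.8, 43.8 and 20.2 CPM in the old samples, without overlap. Its edgeR log2 fold change was 2.23 (SE 0.74), with an unadjusted p of 0.0153 and an adjusted p of 0.851. The other subunit, Tap1, was at 28.9 ± 19.0 and 79.5 ± 39.9 CPM (SD, n = 3 each) and overlapped, with an edgeR adjusted p of 0.891. Tapbp, which encodes tapasin, was at 197 ± 2.55 CPM in young and 139 ± 41.7 CPM in old samples, where every old sample was lower and the log2 fold change was -0.50.

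The immunoproteasome, a form of the proteasome whose exchanged subunits favour peptides that bind class I, had 3 of 5 genes above 0 and a median log2 fold change of 0.18, which was -0.05 without young sample 3. Psmb9, one of its catalytic subunits, was at 18.9, 39.8 and 31.1 CPM in the young samples and at 217, 38.4 and 122 CPM in the old samples. Old sample 2 lay among the young samples, and the edgeR unadjusted p of 0.00979 became an adjusted p of 0.778. Psmb8, another catalytic subunit, was at 21.7 ± 13.8 and 32.6 ± 20.3 CPM, and Psme1, which encodes a proteasome activator subunit, at 91.0 ± 30.4 and 52.6 ± 22.1 CPM (SD, n = 3 each).

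Among 15 regulators of class I transcription, 12 had log2 fold changes above 0, with a median of 0.37, which was 0.81 without young sample 2. At an edgeR unadjusted p under 0.05, 2 of the 15 were higher in old samples, against 441 of all 15394 genes tested (2.86%). Irf9, a subunit of the complex that carries type I interferon signals to DNA, was at 50.6, 92.8 and 33.4 CPM in the young samples and at 180.3, 131 and 158 CPM in the old samples. These groups did not overlap (edgeR log2 fold change 1.41, SE 0.43, adjusted p = 0.778). Irf1, an interferon-induced transcription factor, was at 25.2, 28.1 and 33.4 CPM in the young samples and at 249, 18.5 and 67.4 CPM in the old samples. Its old samples held both the lowest and the highest value. Stat2, which joins Irf9 in that complex, was at 105 ± 26.9 and 176 ± 89.0 CPM (SD, n = 3 each). Nlrc5, named here after its values were seen, was at 10.7, 40.3 and 0 CPM in the young samples and at 37.9, 33.0 and 144 CPM in the old samples, which overlapped.

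Of 19 other class I genes of the MHC, 10 were in the table and 6 were tested, of which 5 had log2 fold changes above 0 and the median was 1.18. Without old sample 3 that median was 0.07. H2-Q10, whose product is secreted by the liver, was at 22.5, 28.0 and 43.5 CPM in the young samples and at 62.2, 74.1 and 86.6 CPM in the old samples (edgeR unadjusted p = 0.0248, adjusted p = 0.888). It did not overlap, and it is the gene that shares most words with H2-Q7. H2-Q5 was at 33.9 ± 15.4 and 51.9 ± 28.4 CPM (SD, n = 3 each). H2-T10, the near copy of H2-T22, was at 2.98, 2.84 and 2.70 CPM in the young samples and at 0.449, 1.38 and 28.4 CPM in the old samples. Old sample 3 was the highest sample for both genes.

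Class I-like genes encoded outside the MHC had 2 of 5 log2 fold changes above 0 and a median of -0.37, which was 0.13 without old sample 2. Hfe, whose product binds beta-2-microglobulin and takes part in iron balance, was at 59.1 ± 12.6 and 30.2 ± 23.9 CPM, and Procr, the endothelial protein C receptor, at 19.2 ± 9.44 and 13.9 ± 3.53 CPM (SD, n = 3 each). Mr1, which presents vitamin B metabolites, was at 40.1, 0.457 and 9.27 CPM in the young samples and at 29.9, 0 and 8.49 CPM in the old samples. The MHC class II list, whose genes serve presentation to CD4 T cells, had 7 of 10 above 0 and a median of 0.53. That median was 0.18 without young sample 1, 0.23 without old sample 2 and 0.23 without old sample 3. H2-Eb1 was at 30.4, 47.6 and 32.9 CPM in the young samples and at 73.9, 67.2 and 53.7 CPM in the old samples, without overlap (edgeR adjusted p = 0.891). H2-Aa was at 126 ± 82.5 and 234 ± 43.3 CPM (SD, n = 3 each), and Ciita, the class II transactivator, at 4.78, 6.20 and 5.09 CPM in the young samples and at 2.17, 53.0 and 5.52 CPM in the old samples. No gene of any of these lists passed edgeR's adjusted threshold.

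**Figure D4:**
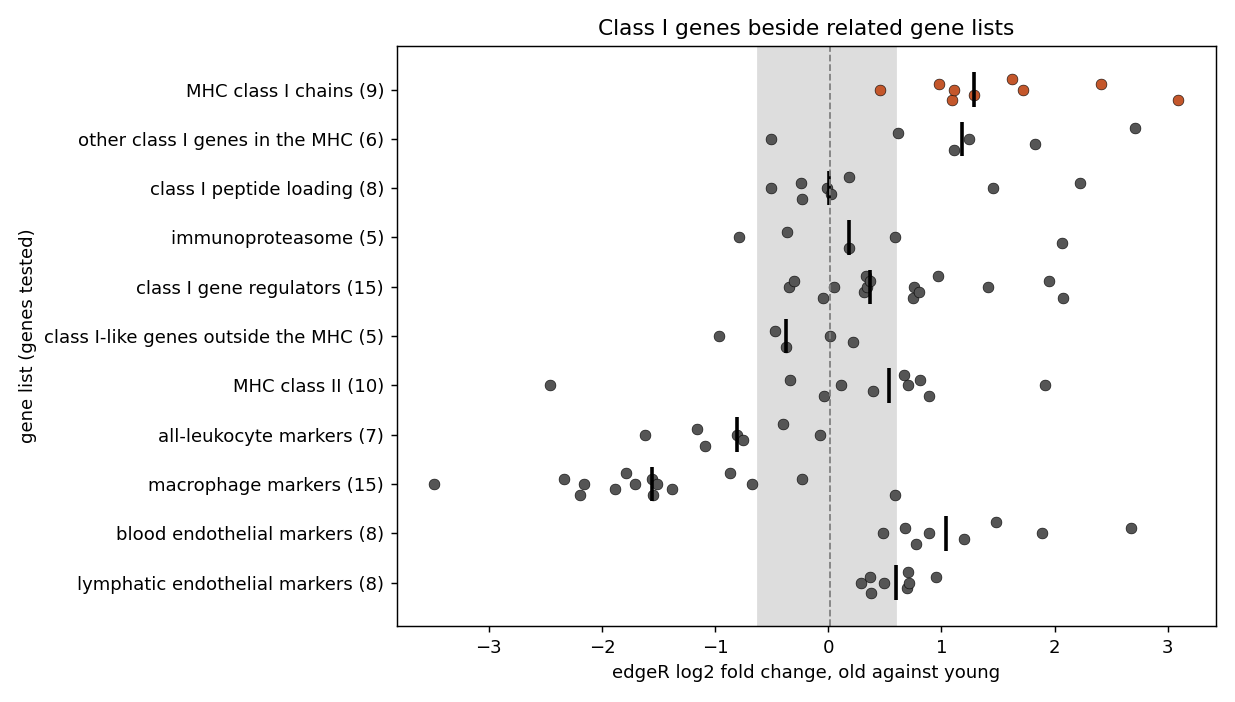
EdgeR log2 fold changes of old against young samples for the genes of each list, 1 point per gene, with a bar at the list's median; the dashed line and grey band mark the median and the quartiles over all 15394 genes. The 9 class I genes have a median of 1.29, the peptide loading genes 0.01, and the macrophage markers -1.56.

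Other cell types express class I as well, and the levels of their markers are given beside the result. The 7 all-leukocyte markers summed to 259, 1190 and 1103 CPM in young samples 1 to 3 and to 365, 566 and 338 CPM in old samples 1 to 3, and 0 of the 7 log2 fold changes were above 0. Of 15 macrophage markers 1 was above 0 and 14 below, with sums of 881 to 5321 CPM in young and 902 to 2511 CPM in old samples. The marker above 0 was Mrc1, at 401, 452 and 362 CPM in young and 679, 414 and 739 CPM in old samples. It thus held 401 of the 881 CPM in young sample 1 and 679 of the 902 CPM in old sample 1. The heavy-chain sums of the same samples were 883, 911 and 885 CPM in young samples 1 to 3. In old samples 1 to 3 they were 3017, 2083 and 2561 CPM. Of 9 lymphocyte and plasma cell markers tested 5 were above 0 and 4 below. Sums over the 12 measured were 86.5 to 1071 CPM in young and 112 to 1772 CPM in old samples. Igkc, an antibody light chain, was at 5.83, 2.08 and 0 CPM in young and 14.5, 637 and 497 CPM in old samples. Of those below 0, Cd8a was at 2.73, 5.33 and 8.28 CPM in young and 0.150, 1.02 and 0.586 CPM in old samples. Jchain, also below 0, had an edgeR log2 fold change of -0.44 (SE 1.55). Of 6 granulocyte and mast cell markers tested 4 were above 0. Sums over the 7 measured were 37.7 to 87.1 CPM in young and 14.1 to 218 CPM in old samples.

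All 8 tested blood endothelial markers had log2 fold changes above 0, with a median of 1.04. Sums over the 9 measured were 620 to 709 CPM in young and 1334 to 1594 CPM in old samples, which do not overlap. Vwf, the gene of von Willebrand factor, was at 39.0, 66.3 and 31.8 CPM in the young samples and at 221, 325 and 328 CPM in the old samples. The 8 lymphatic markers were also all above 0, with a median of 0.60 and sums of 10098 to 12596 CPM and 15889 to 19257 CPM. Pericyte and smooth muscle markers were above 0 in 7 of 9, with sums of 983, 644 and 694 CPM in young samples 1 to 3 and 2017, 972 and 1186 CPM in old samples 1 to 3. The old samples rank in the same order in this sum as in the heavy-chain sum, and the young samples in the reverse order. Old sample 1 stood apart for the smooth muscle genes Myh11 (668 CPM, against 67.8 and 65.8 in the other old samples) and Acta2 (453 CPM, against 82.5 and 98.1). Without old sample 1 the heavy-chain ratio was 2.60. Of the fibroblast markers 1 of 9 was above 0, with sums of 5548 to 8496 CPM and 2710 to 4642 CPM. No marker that was tested stood at 0 in every sample of a group. The part of these marker levels in the class I result was not tested.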

How the data were processed

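The deposited table holds estimated counts per gene made by the authors. Per the submitters' processing notes, FastQC, Salmon and the build mm10 were used, with no versions or roles named. The sources used here do not give the annotation, the strand setting or the step from transcripts to genes. The deposited values were already whole, so rounding changed nothing. No pair of libraries agreed within counting noise (chi-square per degree of freedom of at least 104), so none was treated as a duplicate deposit. This does not show that they came from separate animals.

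Groups came from the labels. Symbols (22738 of 22964 identifiers matched), positions, exon lengths and shared 31-base words came from the GENCODE M21 annotation and transcripts of GRCm38, the assembly mm10 denotes. Genes were fitted in edgeR 4.0.16 under R 4.3.3 with filterByExpr (minimum count 10, minimum total 15; 7570 genes removed), TMM scaling, and a two-sided test from a robust quasi-likelihood fit of age. Benjamini-Hochberg adjustment ran over all 15394 genes, with a threshold of 0.05. CPM used TMM-adjusted library sizes, and log2 CPM a prior count of 2. DESeq2 1.42.0, limma-voom (limma 3.58.1), other scalings and filters, a replicate block and leaving out each sample were alternatives. The edgeR fit was checked on simulated counts, and the DESeq2 and limma-voom fits were not. Promoters came from RefSeq on GRCm38.p6, and all 9 genes matched.

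The genes, the lists and the tests were chosen with earlier results of these data known. Named were all 9 class I genes. From each list came up to 3 genes with the smallest edgeR p among those with a mean of at least 5 CPM, and any gene at 0 in a whole group. The 5 genes most like B2m or the heavy-chain sum, with a mean of at least 20 CPM, and Prox1, Pdpn, Pecam1 and Ptprc were also named. Nlrc5, Calr, Canx, Pdia3, Cd8a and Jchain were added outside these rules, after their values were seen. Of the marker lists, few of these genes are printed, and the lists are given by their counts and sums. The windows of B2m and H2-T22 reached 1 and 5 bases into the gene's own annotated exon and were trimmed by these for printing, but searched whole. Not printed are H2-D1 and H2-T23, whose windows lie in their own exons over 200 and 154 bases, H2-Q4, whose window lies in an exon of Gm11131, and H2-M3, left out for brevity.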

Additional observations from a re-analysis of the deposited data

How the results depend on the processing

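In place of the 0 genes called by edgeR, DESeq2 called 130 (66 higher, 64 lower), 5 of them class I genes, and limma-voom called 3 (Ccl21a, Gm21541 and Sparc). Leaving out 1 sample at a time gave 0 to 1 edgeR calls, the 1 being Igkv10-96 without old sample 1. With the replicate number as a block edgeR called 0 genes, with 712 at an unadjusted p under 0.05 and 6 of the 9 class I genes among those. Correlations of same-numbered samples' deviations were 0.08, 0.05 and -0.01, and those of differently numbered samples ran from -0.09 to 0.06. With so few samples, these values cannot show whether equal numbers mark a shared batch or day. With library size alone, the split at an unadjusted p under 0.05 was 285 higher of 831, against 441 of 856, and the median of all genes shifted from 0.02 to -0.12. All 9 class I log2 fold changes stayed above 0 in every alternative that kept them as separate rows, and 5 or 6 of them had an unadjusted p under 0.05. Lowest and highest log2 fold changes were 0.83 and 1.05 for B2m, 1.45 and 1.93 for H2-K1, 0.97 and 1.25 for H2-D1, 0.84 and 1.60 for H2-Q4, 2.57 and 3.74 for H2-Q6, and 2.22 and 2.60 for H2-Q7. The heavy-chain ratio ranged from 2.59 to 3.12 over 11 alternatives, and the ratio of heavy chains per B2m from 1.32 to 1.60 over 9. In both counts, adding every class I heavy-chain gene of the MHC and merging them to a single row gave the same value (2.73 and 1.34). These are not separate alternatives. The median of the lymphatic markers was 0.46 with library size alone. The medians of 5 lists fell on both sides of 0 among the alternatives: peptide loading (-0.34 to 0.26), immunoproteasome (-0.05 to 0.32), class I-like genes outside the MHC (-0.68 to 0.13), lymphocyte and plasma cell markers (-0.09 to 1.25) and granulocyte and mast cell markers (-0.77 to 2.21). The causes were not tested. The lowest class I values, such as 37 estimated counts of H2-Q6 in young sample 1, also carry counting error.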
